A study of Mus musculus with 12 samples.

Results

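The transcriptional response of naïve CD8 T cells to anti-CD3 was measured while LAIR-1 was ligated, by comparing stimulated and unstimulated cells that were both in wells coated with the agonistic anti-LAIR-1 antibody 2C7. The comparison was taken by its antibody labels and used 6 of the 12 libraries of the series, 3 without and 3 with anti-CD3, matched by mouse number. Splenic cells of adult wild type mice, on a C57BL/6N background by the study's methods, were sorted as TCRβ+CD8+ cells of the naïve phenotype, with CD44-high cells left out, and cultured for 6 h at 100000 per well. Stimulated wells held immobilized anti-CD3ε (clone 145-2C11, 2.5 µg/ml) with 2.5 µg/ml anti-LAIR-1, and unstimulated wells held the isotype antibody in place of anti-CD3 with the same anti-LAIR-1. The other 6 libraries, from the same 3 mice, had isotype control in place of anti-LAIR-1 and served to define the CD3 programme without LAIR-1 ligation.

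The T cell receptor signals through the CD3 chains, which recruit the kinases Lck and Zap70 and switch on calcium, MAPK and NF-κB pathways. A naïve CD8 T cell that receives this signal leaves quiescence: it induces immediate early transcription factors, then cytokines, activation receptors and the machinery of growth, and it shuts down genes that keep it circulating through lymph nodes. LAIR-1 is a collagen receptor with inhibitory motifs in its cytoplasmic tail, which recruit phosphatases such as SHP-1 when it is crosslinked.

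In the unstimulated libraries, 3547294, 3589194 and 3548881 reads were counted on genes in mice 1, 2 and 3, and in the stimulated libraries 7725545, 6204054 and 4889990. The stimulated libraries were thus the deeper ones in each mouse, and 3 counts corresponded to 0.388 to 0.614 CPM in them against 0.836 to 0.846 CPM in the unstimulated ones (CPM being counts scaled to library size). Mitochondrial genes took 19.2 to 20.9% of the counts without and 11.9 to 13.2% with anti-CD3, so that the groups did not overlap. All levels below are CPM normalized by the TMM method over the 12 libraries, a share of the RNA of a well, so that fewer cells and less RNA per cell cannot be told apart.

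The labelled cell type was checked against its markers. All 10 markers of naïve CD8 T cells that were in the table (of 13 listed) were detected, and their summed level was 6507, 6752 and 6247 CPM in the 3 unstimulated libraries and 2266, 2433 and 2608 CPM in the stimulated ones. Of these markers, 9 fell with anti-CD3. The lists of other cells were low. The B cell list summed to 11.1, 16.5 and 27.8 CPM without and 9.44, 14.4 and 9.53 CPM with anti-CD3, with Cd74 the most abundant, and 5 of its 14 genes, Pax5 and Ebf1 among them, had no count or no row in the table. The myeloid or dendritic list summed to 53.5, 61.0 and 54.3 CPM and 34.5, 45.1 and 43.6 CPM, nearly all of it Cst3, a protease inhibitor that many cell types express, while Csf1r and Cd14 were at 0. The CD4 or Treg list did not exceed 1.89 CPM in any of the 6 libraries, the erythroid or platelet list did not exceed 5.57 CPM, and no γδ T cell gene had a row. The NK list was carried by Eomes, which CD8 T cells express, at sums of 32.4, 24.7 and 26.0 CPM without and 38.4, 35.7 and 30.3 CPM with anti-CD3, and Klrb1c had 1 count in the 6 libraries. Of the memory CD8 list, whose CD44-high cells the gate leaves out, 2 genes rose and 2 fell with anti-CD3. Cd44 itself had 14, 19 and 24 counts in the unstimulated and 290, 146 and 168 in the stimulated libraries, and Cxcr3 was at 0, 1.86 and 1.34 CPM and 26.4, 19.8 and 30.9 CPM. The summed level was 429, 417 and 422 CPM without and 220, 190 and 204 CPM with anti-CD3. Itga4, the most abundant, fell by more than the sum did, standing at 313, 302 and 295 CPM and 31.6, 31.3 and 37.1 CPM. Lair1 had 9 counts over the 3 unstimulated libraries and 4 over the stimulated ones, so that its RNA was at the limit of detection and could not be tested.

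Anti-CD3 changed most of the measured transcriptome while LAIR-1 was ligated. Among genes at a mean of 10 CPM or more over the 6 libraries, the 10 largest rises were those of Tnfsf14, Ccl4, Xcl1, Ccl3, Spin4, Dgat2, Pdcd1, Irf8, Sema7a and Rgs16, which include cytokines, chemokines and an inhibitory receptor. Some of them reached this mean only through the stimulated libraries. Their unstimulated counts summed to 0 for Tnfsf14, 2 for Dgat2, 4 for Spin4 and 10 for Pdcd1, so that their place in the order is poorly bounded. Of 8735 protein-coding genes tested with the mouse as a block, 6305 (72.2%) had an adjusted p under 0.05 (edgeR, quasi-likelihood test, Benjamini-Hochberg). On the TMM scale 3196 (36.6%) were higher and 3109 (35.6%) lower with anti-CD3, and of all called genes 6230 moved the called way in each mouse. When a change over 1 on the log2 scale was asked for as well, 1701 genes rose (19.5%) and 1820 fell (20.8%). Changes over 3 on the log2 scale were found in 153 genes upward and 149 downward. The fit with no block on the mouse called 6364 genes, and DESeq2 with the block 5451. After all libraries were thinned to the smallest total, 5321 genes were called. Relative to the TMM scale, the upper quartile moved the median of all genes by -0.21 on the log2 scale and library totals alone by -0.11, so that small changes have no fixed direction. The share of called genes that were higher depended on this too, at 50.7% with TMM, 41.0% with the upper quartile and 45.6% with library totals alone.

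The CD3 programme was then defined in the isotype libraries, which share mice but no library with the anti-LAIR-1 comparison. There, 1769 of 8453 genes were induced (20.9%) and 1950 repressed (23.1%) past both thresholds in edgeR. Of the induced genes, 1754 could be tested under anti-LAIR-1, and 1721 of them (98.1%) rose there as well, 1504 by more than 1 on the log2 scale. Of the 1933 repressed genes that could be tested, 1860 (96.2%) fell, 1544 by more than 1. In neither direction did any gene of the programme change significantly the opposite way. The programme therefore ran under LAIR-1 ligation in nearly all of its tested genes by direction, and the arms differed in size. The induced genes had a median log2 fold change of 1.49 with anti-LAIR-1 and 1.55 with isotype, with a median difference of -0.10 per gene. The repressed genes had medians of -1.55 and -1.88, with a median difference of 0.43, and the fall was smaller with anti-LAIR-1 in 1683 of them.

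Choosing genes on the isotype libraries inflates their isotype fold changes, so the choice was repeated in the isotype libraries of 2 mice and both arms were read in the mouse left out. For induced genes, the median log2 difference in the left-out mouse 1, 2 and 3 was 1.49, 1.52 and 1.38 with anti-LAIR-1 and 1.52, 1.62 and 1.53 with isotype, and the median difference per gene between the arms was -0.04, -0.10 and -0.14. For repressed genes, the medians were -1.58, -1.57 and -1.41 with anti-LAIR-1 and -1.83, -1.92 and -1.71 with isotype, with a difference of 0.31, 0.37 and 0.36. Read this way the fall was smaller under anti-LAIR-1 in 71.3, 75.2 and 71.5% of the repressed genes. The rise was smaller in 54.6, 60.7 and 64.3% of the induced genes. The direction of CD3 was the same in at least 98.7% of the genes of either kind. The shortfall was thus larger in the repressed genes than in the induced ones in each of the 3 mice. The 33 induced genes that did not pass under anti-LAIR-1 were of low abundance, the highest being Zfp800, Csf2rb and Bcl9, named here after their values were seen. Csf2rb, the common β chain of the GM-CSF, IL-3 and IL-5 receptors, rose by 1.47 with isotype and stood at 0.12 in the anti-LAIR-1 arm, but its interaction did not pass 0.05 (adjusted p = 0.0781 in edgeR). Of the 73 repressed genes that did not pass, Alg12, Coq10a and Mink1, also named after their values were seen, did pass the interaction, at 1.64, 1.38 and 1.03 (adjusted p = 0.0178, 0.0279 and 0.0429 in edgeR), so that their fall with isotype was not seen with anti-LAIR-1.

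**Figure D1:**
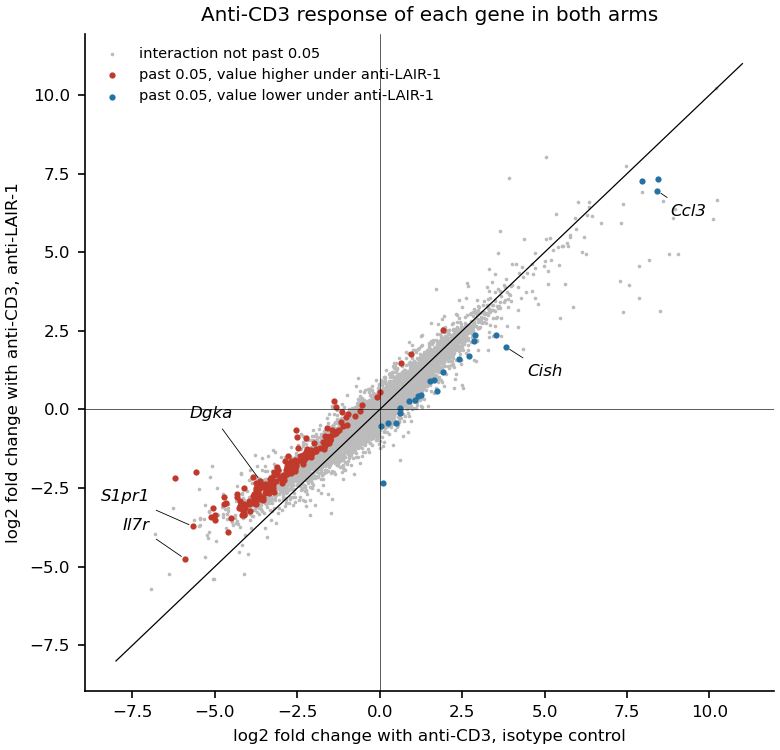
Log2 fold change with anti-CD3 in the isotype arm (x axis) and in the anti-LAIR-1 arm (y axis) for each protein-coding gene tested in both arms and in the interaction; the line marks equal values, and genes with no counts in 1 group have fold changes that rest on the prior count. Red points are genes whose value was higher and blue points genes whose value was lower under anti-LAIR-1 by the interaction test at an adjusted p under 0.05, and most red points are genes that fell with anti-CD3 and lie above the line.

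Immediate early genes, which antigen receptor signals switch on first, were induced. Of the listed transcription factors, 12 of 17 tested rose and 3 fell (all genes, 36.6% and 35.6%), 9 rising by more than 1, and the median log2 fold change was 1.47, beside -0.02 over all genes tested. Nr4a1, an orphan nuclear receptor that follows T cell receptor signal strength, on chromosome 15 from 101254269 to 101274795 of GRCm38, was at 36.3, 40.3 and 40.4 CPM in the unstimulated libraries of mice 1, 2 and 3 and at 510, 487 and 436 CPM in the stimulated ones. The groups were far apart, by 3.60 on the log2 scale (adjusted p = 3.3e-13 in edgeR, standard error 0.10). Egr2, a zinc finger factor downstream of MAPK signals, rose from 26.1, 25.2 and 28.9 CPM to 329, 317 and 270 CPM (log2 fold change 3.50). Nr4a2 rose most among them (4.51), and Ier3 was lowest at -1.21. None of these factors passed the interaction test, the estimate being -0.11 (standard error 0.15) for Nr4a1 and 0.18 (0.19) for Egr2.

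Transcription factors of activation and effector differentiation followed, 8 of 13 tested rising and 4 falling (median 0.81), where 36.6% of all genes rose and 35.6% fell. Myc, which drives growth and metabolism in activated T cells, lies on chromosome 15 from 61985391 to 61990374 and rose 12.8-fold, from 39.6, 49.4 and 45 CPM to 601, 604 and 516 CPM, all 3 stimulated libraries lying far above the unstimulated ones. Irf4, a factor induced in proportion to receptor signal, went from 43.2, 40.3 and 47.6 CPM to 413, 354 and 364 CPM, a rise of 3.10 on the log2 scale against 2.83 with isotype. Irf8 was the highest of the list at 6.54, from a level of 2.70 ± 2.28 CPM (SD, n = 3). Tbx21, which encodes T-bet, had 3 counts over the unstimulated libraries and 87 over the stimulated ones, a ratio of 17.2 with a counting interval of 5.91 to 88.2. The lowest was Ikzf2 (-1.79). No gene of this list passed the interaction test.

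Signalling feedback was induced in part. In the list of MAPK and calcium feedback genes, 15 of 21 rose and 6 fell, beside 36.6% and 35.6% over all genes, with a median of 1.64. Spry1, an inhibitor of Ras-MAPK signalling, rose by 5.16. Dusp4, a MAPK phosphatase, had no count without anti-CD3 and was at least 8.33-fold higher with it, against a floor of 3 counts per library. Dgka, the diacylglycerol kinase that ends Ras activation, fell by 2.27 and is described with the repressed genes. The NFAT and NF-κB feedback list moved less as a whole, 12 of 24 rising and 6 falling, closer to these shares, and its median of 0.15 changed sign in 5 of 20 other settings, the upper quartile among them. In this list Rel, the NF-κB subunit c-Rel, rose most (2.92, from 3.88, 4.51 and 5.09 CPM to 33.3, 36.2 and 33.3 CPM), and Nfkbid rose by 2.05. Nfkbia, the inhibitor of NF-κB, had a log2 fold change of -0.62.

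Among the lists, the tested cytokine and chemokine genes had the highest median log2 fold changes, at 4.41 and 4.53. Of 16 cytokine genes in the table, 9 had enough counts for a test, and 8 rose, all 8 by more than 1 (median 4.41, and 4.41 with genes at 0 set to their bound, against 5.09 with isotype). Of all genes, 36.6% rose and 35.6% fell. Genes of this kind pass a filter on low counts mainly through the stimulated libraries, so that this share and the medians of both lists are raised by the choice of genes. Tnfsf14, the ligand LIGHT, had 0 counts in the 3 unstimulated libraries and 32.9, 36.3 and 23.1 CPM in the stimulated ones, at least 38.0-fold higher against the floor of 3 counts per library. In the isotype arm the same bound was 32.5-fold. Tnf rose from 4.44, 7.96 and 6.42 CPM to 121, 143 and 138 CPM (log2 fold change 4.41, adjusted p = 2.2e-12 in edgeR).

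Il2, the T cell growth factor, had 1 count over the unstimulated libraries and was at 9.31, 6.42 and 8.26 CPM in the stimulated ones, a ratio of 90.4 with a counting interval of 15.9 to 3574. Ifng, the effector cytokine interferon-γ, had 2 counts without anti-CD3 and 16.9, 15.2 and 9.75 CPM with it, a ratio of 76.7 with an interval of 22 to 667. Both genes therefore still switched on, although the size of the change is poorly bounded. With isotype, the stimulated levels were 15.1, 17.8 and 17.2 CPM for Il2 and 38.7, 38.1 and 38.4 CPM for Ifng, above all 3 anti-LAIR-1 libraries in both cases, but with 0 unstimulated counts in that arm the interaction did not pass (adjusted p = 0.664 and 0.409 in edgeR). Ltb was the lowest cytokine gene, at -0.81.

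Among chemokines and their receptors, 7 of 9 tested rose and 2 fell, against 36.6% and 35.6% of all genes. As with cytokines, some of the 9 tested, of 18 in the table, pass the filter only through the stimulated libraries. Xcl1, which attracts cross-presenting dendritic cells, lies on chromosome 1 from 164931644 to 164935527 and went from 104, 70.9 and 96.4 CPM to 14276, 14274 and 12971 CPM, a 153-fold rise (log2 fold change 7.26, standard error 0.12). Ccl4 went from 27.2, 15.4 and 18.2 CPM to 3208, 3242 and 3333 CPM, and Ccl3 from 11.6, 4.25 and 10.2 CPM to 1184, 1131 and 914 CPM, and both encode inflammatory chemokines. These 3 chemokines rose less than with isotype by the interaction test, with estimates of -0.74 for Xcl1 (adjusted p = 0.00259), -1.15 for Ccl4 (0.00863) and -1.53 for Ccl3 (0.0115, edgeR). Unstimulated isotype levels in mice 1, 2 and 3 were 68.8, 71.0 and 62.5 CPM for Xcl1. They were 11.9, 16.7 and 12.4 CPM for Ccl4, and 5.63, 6.12 and 4.31 CPM for Ccl3. All 3 genes were thus lower there than with anti-LAIR-1 in mice 1 and 3, but not in mouse 2. Stimulated isotype levels, at least 16369, 4066 and 1853 CPM, were above those with anti-LAIR-1. The estimates therefore hold differences without anti-CD3 as well as with it. These 3 genes thus rose over 100-fold and still less than in the isotype arm, and the median interaction over the list was -0.48, although its median fold change was 4.53 with anti-LAIR-1 and 4.33 with isotype.

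In the cytotoxic granule list, 8 of 13 rose and 3 fell (median 1.20; all genes, 36.6% and 35.6%). Serpinb6b, which encodes a serpin, was the highest at 3.72 and Ctla2a the lowest at -2.38. Gzmb, the granzyme that triggers apoptosis in target cells, was at 1.11, 0.265 and 0.268 CPM without and 8.23, 6.59 and 4.66 CPM with anti-CD3 (log2 fold change 3.53, adjusted p = 1.0e-05 in edgeR), while the stimulated isotype libraries held 41.1, 30.5 and 52.8 CPM. The interaction estimate for Gzmb was -4.42 with a standard error of 1.29, and did not pass (adjusted p = 0.0734 in edgeR), its unstimulated isotype level resting on 1 count. Prf1, the pore-forming perforin, rose by 3.20, and by 3.31 with isotype. Nkg7, a granule membrane protein, rose by 1.20 and passed the interaction test at -0.74.

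Of the costimulatory receptors, 12 of 18 rose and 3 fell (median 1.03), against 36.6% and 35.6% over all genes. Tnfrsf9, which encodes 4-1BB, rose 33.4-fold, from 35.2, 27.9 and 45 CPM to 1273, 1192 and 1147 CPM, and Cd69, an early activation antigen that retains cells in tissue, rose 5.56-fold, from 84.8, 95 and 99.3 CPM to 565, 516 and 472 CPM. Their interaction estimates were -0.22 (standard error 0.17) and -0.25 (0.14), neither of which passed. Cd160 was the highest of the list (6.09) and Slamf6 the lowest (-0.94), and Tnfrsf4, which encodes OX40, did not pass at -0.07, with its sign depending on mouse 2 (a value of 0.52 without it). Cd28 (0.40) and Cd2 (-0.65) had higher values than with isotype by the interaction test (0.46 and 0.57). Of the inhibitory receptors, 6 of 10 rose and 4 fell (median 1.27), the share that fell being near that of all genes. Pdcd1, which encodes PD-1, was at 1.39, 1.06 and 0.268 CPM without and 94.8, 90.6 and 82.0 CPM with anti-CD3 (log2 fold change 6.58). Ctla4 did not share this rise and fell by 1.58 on the log2 scale. Its log2 difference was -0.83, -0.79 and -2.60 in mice 1, 2 and 3. The fall of Ctla4 passed in 16 of 18 other settings, at values from -2.16 to -0.93. The inhibitory receptors Pecam1 (-2.73) and Klrd1 (-1.61) fell less than with isotype, at interaction estimates of 0.91, which passed in 9 of 12 other settings (from 0.51 to 1.24), and 0.92, which passed in 12 of 12.

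Of cytokine receptors and JAK-STAT feedback genes, 11 of 33 tested rose and 15 fell (median -0.24), beside 36.6% and 35.6% of all genes. Il2ra, the high-affinity chain of the IL-2 receptor, rose 23.7-fold, from 9.70, 9.02 and 8.30 CPM to 219, 207 and 215 CPM, and Il12rb1 was the highest by fold, on 2 unstimulated counts. Cish, an inhibitor that STAT5 induces downstream of IL-2, rose from 7.48, 6.63 and 4.82 CPM to 24.8, 27.4 and 23.1 CPM (log2 fold change 1.98, adjusted p = 3.6e-07 in edgeR). In the isotype arm Cish rose from 3.97, 6.53 and 7.01 CPM to 73.8, 78.2 and 102 CPM, and the interaction estimate of -1.90 (standard error 0.34, adjusted p = 0.00212 in edgeR) was among the 5 lowest of those that passed at a mean of 10 CPM or more over the 12 libraries. Cish thus rose in both arms and less with anti-LAIR-1, and it passed the interaction in 10 of 12 other settings.

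Genes of ribosome biogenesis rose throughout. In the list of ribosome biogenesis genes, 50 of 50 tested rose, 49 of them by more than 1, with a median log2 fold change of 2.21 against 2.34 with isotype, where 36.6% of all genes rose. Ncl, the nucleolar protein nucleolin, went from 342, 316 and 341 CPM to 1621, 1716 and 1633 CPM, and Fbl (fibrillarin) and Nop56, parts of the box C/D particles that methylate ribosomal RNA, rose by 2.14 and 2.44. The range of the list ran from 0.73 for Polr1c to 3.47 for Rrp1b, and no member passed the interaction test. Translation factors rose in 35 of 43 and fell in 3 (median 1.15), with Eif5a at 2.60, Eif4a1 at 2.06, Eif4ebp1 at 1.19, Eef1e1 the highest at 3.16 and Pdcd4, an inhibitor of translation initiation, the lowest at -2.55. Of the aminoacyl-tRNA synthetases 21 of 23 rose (median 1.60), and of the chaperonins and heat shock proteins 26 of 28 (median 1.65), with Hspd1, the mitochondrial chaperonin, highest at 2.77 and Hsp90ab1 at 1.61. The proteasome list gave 34 of 37 rising (median 1.30), but the immunoproteasome subunits Psmb8 and Psmb10 fell, by 0.77 and 1.06. Most genes of these lists thus rose, and only Psmb8 among them passed the interaction, at 0.58.

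Of the cytosolic ribosomal proteins, 27 of 79 tested rose, 25 fell and 27 did not pass, so that as a list they were near the 36.6% and 35.6% of all genes. Their median of -0.01 ran from -0.22 to 0.08 in other settings and changed sign in 7 of 20 of them. Rpl3 and Rps6 were at 0.02 and -0.04, and neither passed. Mitochondrial ribosomal proteins, in contrast, rose in 69 of 76 (median 1.05), with Mrpl12 at 2.19 and Mrps6 the highest at 3.13. The nuclear-encoded respiratory chain rose in 59 of 76 (median 0.70), led by Cycs, which encodes cytochrome c, at 2.33. Of 13 subunits encoded in the mitochondrial genome, 12 fell (median -0.47), mtCo1 by 0.47, and mtNd1 did not pass at 0.08. Of the nuclear-encoded genes, 4 fell and 13 did not pass. The medians of the nuclear and mitochondrial parts thus had opposite signs as shares of the RNA, and their difference was not tested.

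Counts of the metabolic lists stand beside 36.6% of all genes rising and 35.6% falling. Of the glycolysis genes 11 of 15 rose and 2 fell (median 1.64), with Hk2, the inducible hexokinase, going from 2.49, 2.12 and 1.87 CPM to 65.3, 62.9 and 50.4 CPM, Ldha rising by 1.96 and Pgk1 by 1.78, while the constitutive hexokinase Hk1 fell by 1.28. Of the amino acid and glucose transporters 10 of 14 rose, with Slc7a5 and Slc3a2, the chains of the large neutral amino acid transporter, at 2.91 and 1.72. Serine and one-carbon metabolism rose in 12 of 13 (median 1.93), Shmt1 going from 3.88, 4.25 and 4.01 CPM to 174, 158 and 151 CPM and Mthfd2 rising by 3.31. Polyamine synthesis rose in 8 of 12, with the spermidine synthase Srm at 3.90 and Odc1 at 2.51. Purine and pyrimidine synthesis rose in 20 of 23, led by Ctps (3.06) and with Cad at 2.15. In this list Ctps2 (-2.07) fell less and Pfas (1.59) rose less than with isotype by the interaction test, at 0.98 and -0.82. Cholesterol and fatty acid synthesis was closer to these shares, 13 of 24 rising, 4 falling and 7 not passing, with Fasn the highest at 2.31 and Elovl6 the lowest at -1.95. Across these metabolic lists no other member passed the interaction.

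Of the cyclins, CDKs and CDK inhibitors of G1 in the cell cycle, 7 of 16 rose and 8 fell, beside 36.6% and 35.6% of all genes. Ccnd2, a D-type cyclin, rose from 136, 119 and 112 CPM to 666, 712 and 523 CPM and Cdk4 rose by 1.91, while Cdkn1b, the CDK inhibitor p27 that holds naïve cells in quiescence, fell from 564, 642 and 573 CPM to 86.6, 81.4 and 98.9 CPM. Both Ccnd2 and Cdkn1b changed less than with isotype, at interaction estimates of -0.58 (adjusted p = 0.0213) and 1.07 (4.5e-05, edgeR). Cdkn1a, which encodes p21, was the highest of the list at 3.43. Of DNA replication genes 10 of 30 rose and 10 fell, near the same shares of all genes, with Mcm2 rising by 1.00 and Mcm5 by 0.69. Of 17 mitosis genes in the table only 4 had enough counts to be tested, and none of these rose. Mki67, a marker of proliferating cells, had 24 counts over the unstimulated and 7 over the stimulated libraries. Not all untested mitosis genes went this way: Aurka had 5, 7 and 8 counts without and 27, 22 and 8 with anti-CD3, in deeper libraries.

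Genes of homing and of the naïve state were among those repressed. Of 17 homing and egress genes tested, 14 fell, 11 of them by more than 1, and 3 rose, where 35.6% of all genes fell. The median of this list was -2.12 with anti-LAIR-1 and -3.07 with isotype, and 7 of its genes fell less by the interaction test, where 2.11% of all genes had a higher value. Of all repressed genes of the programme, 9.03% had a smaller response by this test. S1pr1, the receptor that lets T cells leave lymphoid tissue, lies on chromosome 3 from 115710433 to 115715072. It was at 1157, 1252 and 1141 CPM in the unstimulated libraries and 77.7, 95 and 99.8 CPM in the stimulated ones, a fall of 3.72 on the log2 scale (adjusted p = 8.3e-14 in edgeR, standard error 0.09). The isotype arm began at a like level, 1179, 1150 and 1085 CPM, and ended at 28.7, 15.5 and 25.4 CPM, below all 3 anti-LAIR-1 libraries. The interaction estimate of 1.92 (standard error 0.18, adjusted p = 3.9e-07 in edgeR) was among the 5 highest by the same limit, and S1pr1 passed in 12 of 12 other settings.

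Klf2, the transcription factor that maintains S1pr1, fell from 2263, 1472 and 1533 CPM to 173, 239 and 237 CPM with anti-LAIR-1, and the stimulated isotype libraries were at 104, 109 and 105 CPM. Klf2 was thus still repressed, by 3.01 on the log2 scale, and fell less than with isotype, at an interaction estimate of 0.69. That call was less stable than for S1pr1: it passed in 8 of 12 other settings, with estimates from 0.44 to 1.04, and in mouse 1 the log2 difference was -3.70 with anti-LAIR-1 and -3.72 with isotype. S1pr4 (0.89) and the selectin ligand Selplg (0.90) also fell less and passed in 12 of 12 other settings each. The integrin chain Itgb7 (1.10) passed in 8 of 12, and the complement regulator Cd55 (1.68) in 8 of 11, with estimates from 0.97 to 2.08. Itgb2, the β chain of LFA-1, rose by 1.08 and was the highest of the list.

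Naïve and quiescence genes fell in 32 of 36 tested, 29 by more than 1, where 35.6% of all genes fell. The median was -1.92 with anti-LAIR-1 and -2.83 with isotype, and 10 genes fell less by the interaction test, beside the same 2.11% of all genes and 9.03% of the repressed genes of the programme. Il7r, the receptor chain for the survival cytokine IL-7, which stood in the cytokine receptor list, fell 26.6-fold, from 399, 405 and 297 CPM to 13.2, 12.3 and 15.9 CPM, and by more with isotype, to 5.74, 5.72 and 4.99 CPM (interaction 1.14, adjusted p = 0.00404 in edgeR). Lef1 and Tcf7, the HMG-box factors of the naïve state, fell by 2.87 and 2.16, with interaction estimates of 0.64 and 0.70. Foxo1, which maintains Klf2 and Il7r, fell by 1.40, Btg2 by 0.80 and Tob1 by 2.50, and the interaction passed for none of these. St8sia6, a sialyltransferase, was the lowest of the list, from 202 counts to 6, and Tob2 the highest at 1.00. Txnip, a brake on glucose uptake, Tsc22d3, Pik3ip1, Slfn1, Dapl1 and Kbtbd11 were repressed by between 1.48 and 3.47, each less than with isotype.

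Dgka lies on chromosome 10 from 128720134 to 128744855 and is another gene that resting T cells express highly. Its level was 1302, 1615 and 1448 CPM without and 287, 267 and 357 CPM with anti-CD3, and with isotype 1426, 1653 and 1550 CPM and 130, 120 and 136 CPM. The stimulated libraries of the arms did not overlap, and the interaction estimate was 1.32 (standard error 0.13, adjusted p = 9.0e-07 in edgeR). Cnp and Rasa3, a GTPase-activating protein of Ras and Rap, had estimates of 1.90 and 1.74, and their falls were 2.78 and 3.02. Repression of these genes therefore ran under LAIR-1 ligation but was shallower than in the isotype arm. Among genes at a mean of 10 CPM or more over the 6 libraries, those with the largest falls were Fam101b (-5.24), Il7r, Cacna2d4 (-4.54), Gm14085, Rapgef4, Cd7, Arl5c, Emc9, Mgst2 and Acp5, at -3.75 or below, and of these 10 only Il7r and Arl5c passed the interaction.

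**Figure D2:**
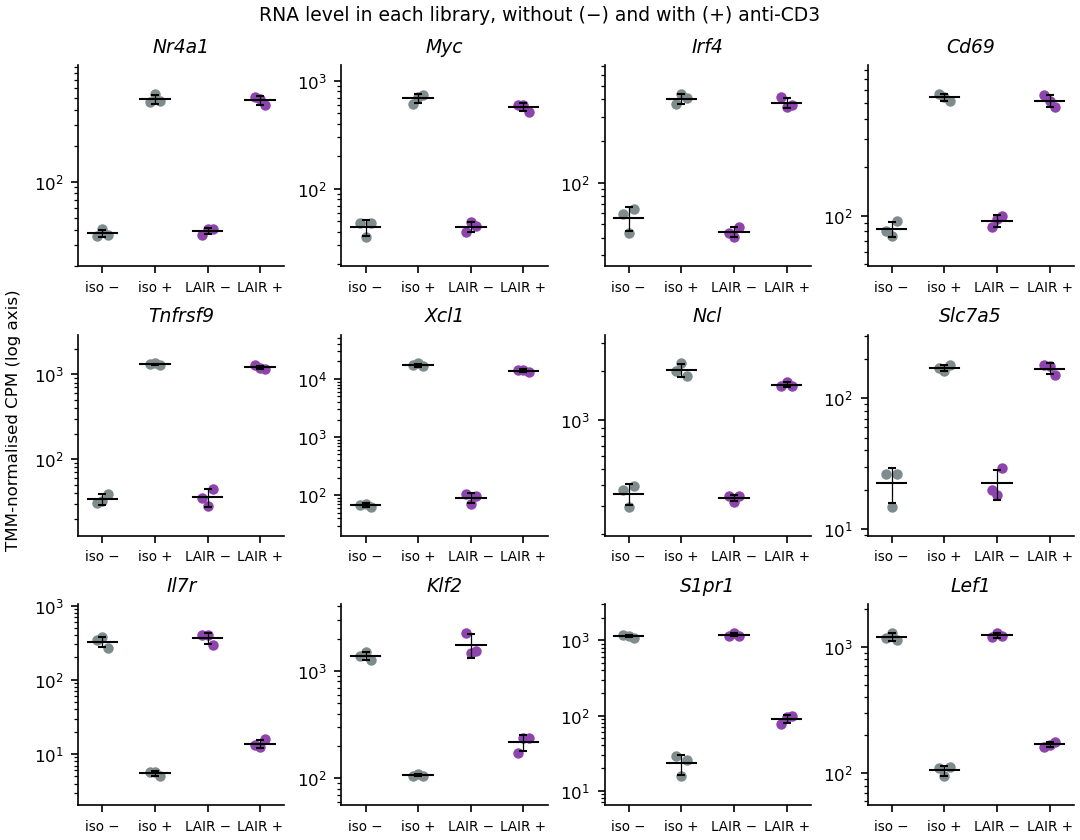
TMM-normalised CPM on a log axis for 12 named genes in each library: isotype control (grey, iso) and anti-LAIR-1 (purple, LAIR), each without (−) and with (+) anti-CD3. Points are the 3 mice, horizontal lines the mean and bars the SD; the 8 induced genes rise in both arms, whereas Il7r, Klf2, S1pr1 and Lef1 stop at higher levels with anti-LAIR-1.

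The T cell receptor complex and its proximal signalling genes fell in 14 of 23 tested and rose in 6 (median -0.52), where 35.6% and 36.6% of all genes did. Zap70, the kinase that binds the phosphorylated CD3 and ζ chains, rose by 1.97, whereas Lck fell by 0.34, Cd3e by 0.22 and Cd3g by 0.52, and Cd8a did not pass at -0.14. The fall of Cd3e passed in 13 of 20 other settings, at values from -0.43 to -0.12. The chains Cd3e and Cd3g, the adaptor Skap1 and Csk, which restrains Lck, had higher values than with isotype by the interaction test (0.50, 0.57, 0.84 and 0.53). In all, 4 members of this list passed with a higher and 1 with a lower value, beside 2.11% and 0.258% of all genes. Sh2d1a, the adaptor SAP, was the lowest of the list at -3.18.

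GIMAP GTPases, which support survival of naïve lymphocytes, fell in 7 of 8, against 35.6% of all genes, Gimap4 by 1.34, and only Gimap5 rose (1.05). Interferon-stimulated genes fell in 12 of 19 (median -0.80, and over the 16 tested in both arms -0.77 against -1.36 with isotype), with Ddx58 the lowest at -2.67, Ifit3 at -1.55 and Gbp2 the highest at 2.14. Of the MHC class I and peptide loading genes 7 of 13 fell, H2-K1 by 0.58 and B2m by 0.47, while Calr, a chaperone, rose by 1.59. The lysosome and autophagy list fell in 20 of 34, Ctsd by 2.08 and Ulk1 by 1.19, and Laptm5 and Ulk2 fell less than with isotype (0.53 and 0.94). In the BCL2 family 4 rose and 5 fell of 10, beside 36.6% and 35.6% of all genes, and its median changed sign in 6 of 20 other settings: Bcl2l1, the survival gene for BCL-XL, rose by 2.37, less than with isotype (-1.19, adjusted p = 0.0480 in edgeR), and Bcl2l11, which encodes the death-promoting BIM, fell by 0.66. The Bcl2l1 interaction passed in 8 of 12 other settings, with estimates from -1.80 to -0.90. In mouse 1 its log2 difference was 2.99 with anti-LAIR-1 and 3.07 with isotype. In the actin list 16 of 37 rose and 14 fell, near the shares over all genes, its median of 0.15 changing sign under the upper quartile. Within it Actb rose by 0.83 and Lcp1 by 1.34, while Vim fell by 3.29, and Tmsb10, Coro1a, Cnn2, Lsp1 and Myh9 fell less than with isotype, at interaction estimates from 0.48 to 0.92.

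**Figure D3:**
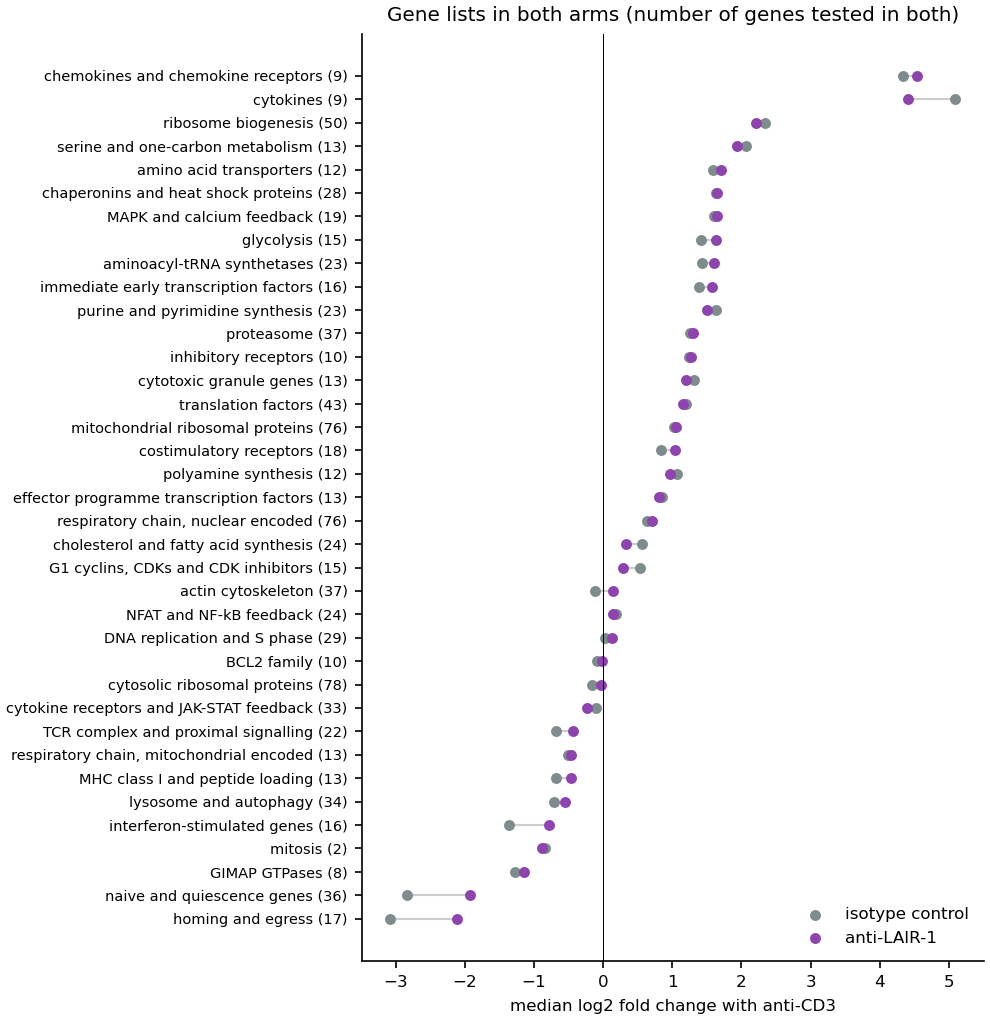
Median log2 fold change with anti-CD3 in each gene list, over the genes tested in both arms (their number in parentheses), with isotype control (grey) and with anti-LAIR-1 (purple). The medians of most lists lie close together, and the naïve and quiescence list and the homing and egress list, at -1.92 and -2.12 with anti-LAIR-1, lie further from their isotype values of -2.83 and -3.07. The cytokine list (4.41 against 5.09 with isotype) and the interferon-stimulated list (-0.77 against -1.36) also lie apart.

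The difference between the arms was tested gene by gene over all 12 libraries. The interaction passed for 211 of 8928 genes (2.36%) in edgeR, 188 (2.11%) with a higher and 23 (0.258%) with a lower value under anti-LAIR-1. Of the 188 genes, 181 had fallen significantly in the isotype arm, and 175 still fell significantly with anti-LAIR-1, while 5 rose there. Of the 23 genes with a lower value, 20 had risen and 0 had fallen in the isotype arm, and 17 rose and 4 fell with anti-LAIR-1. Within the programme, a smaller response passed for 176 of 1950 repressed genes (9.03%) and for 16 of 1769 induced ones (0.904%), and a larger response for 0 repressed genes and 1 induced gene. The programme was chosen on isotype libraries that also enter the interaction, which favours a smaller response. No conclusion is therefore drawn from the counts within the programme. Over all tested genes, 175 of the 211 calls were falls with anti-LAIR-1 that were shallower than with isotype. The count depended on the number of mice, being 94, 75 and 87 without mouse 1, 2 or 3, and 126 after thinning, and genes that did not pass are not shown to respond alike. Among named genes, the calls for Arl5c, Klf2, Tcf7, Bcl2l1, Ccnd2, Smpdl3a, Nkg7, Itgb7, Pik3ip1, Ramp1, Ctps2, Pfas and Myh9 were lost in 4 or more of 11 or 12 other settings, and on simulated data unchanged genes made up more of the interaction calls than the threshold allows.

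The promoters of responding genes were searched for short motifs, as a description. Sequences from 250 bases before to 50 after the start of a gene, from RefSeq on GRCm38.p6, were matched for 7073 of 8735 tested genes (9000 promoters), and both strands were read. CACGTG, the E-box to which MYC can bind, was in 10.8% of all these promoters, in 14.5% of those of genes that rose by more than 1, in 8.62% of those that fell by more than 1, and in 9 of 53 promoters of the ribosome biogenesis list. TGANTCA, the letters of an AP-1 element, was in 4.36%, 3.99% and 5.49% of the same groups and in 0 of the 53. TGACGTCA, a cyclic AMP response element, was in 3.47%, 3.75% and 1.95%, and 2 of the 53. GGAAAA, the core to which NFAT can bind, was in 20.5%, 22.5% and 20.1%, and 13 of the 53. None of these differences was tested.

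The promoters below belong to the most induced genes whose window holds the motif looked for in their list. In the immediate early and cytokine lists this was the AP-1 or the cyclic AMP response element. In the ribosome biogenesis list it was the E-box. The NFAT core played no part in the choice, and genes that rose more but are not shown may hold it or other motifs. Capitals mark TGANTCA in Tnfsf14 (chr17:57194132-57194431, minus strand), TGACGTCA in Mif (chr10:75860228-75860527, minus strand), which encodes a cytokine that rose by 2.69, and CACGTG in Nop2 (chr6:125131633-125131932, plus strand) and Mybbp1a (chr11:72441077-72441376, plus strand), nucleolar genes that rose by 2.81 and 2.53. Sequences are 5′ to 3′ on the strand of the gene.
Tnfsf14: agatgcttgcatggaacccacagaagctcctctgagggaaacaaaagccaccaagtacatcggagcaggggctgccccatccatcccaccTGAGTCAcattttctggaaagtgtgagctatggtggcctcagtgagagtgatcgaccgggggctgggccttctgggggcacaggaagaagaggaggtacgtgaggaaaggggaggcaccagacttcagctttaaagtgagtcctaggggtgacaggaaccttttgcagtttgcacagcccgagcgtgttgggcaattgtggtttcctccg
Mif: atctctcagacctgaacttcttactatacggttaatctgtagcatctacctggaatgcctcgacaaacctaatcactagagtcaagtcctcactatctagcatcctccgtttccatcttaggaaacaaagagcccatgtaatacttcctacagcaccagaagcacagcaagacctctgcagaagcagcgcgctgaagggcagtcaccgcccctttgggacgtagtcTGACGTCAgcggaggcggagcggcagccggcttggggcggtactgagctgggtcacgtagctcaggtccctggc
Nop2: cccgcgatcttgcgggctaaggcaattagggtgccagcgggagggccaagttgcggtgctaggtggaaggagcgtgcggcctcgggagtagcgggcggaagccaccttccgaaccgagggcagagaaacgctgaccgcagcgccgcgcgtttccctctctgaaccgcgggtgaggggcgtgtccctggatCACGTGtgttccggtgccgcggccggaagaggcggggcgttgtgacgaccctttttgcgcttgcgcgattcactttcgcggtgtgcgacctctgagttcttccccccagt
Mybbp1a: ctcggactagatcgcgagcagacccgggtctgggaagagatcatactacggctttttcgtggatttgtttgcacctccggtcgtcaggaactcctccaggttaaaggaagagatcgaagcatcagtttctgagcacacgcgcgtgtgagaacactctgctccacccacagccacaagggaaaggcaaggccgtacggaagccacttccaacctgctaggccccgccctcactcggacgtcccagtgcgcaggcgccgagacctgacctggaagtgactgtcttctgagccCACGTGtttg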

How the data were processed

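RNA of each well went through an adapted form of CEL-seq. The authors aligned reads to mm10 transcripts with BWA MEM and dropped those with several equal matches. The values used are counts per gene symbol deposited by the authors, without normalization. The sources do not say if PCR copies were collapsed by molecular identifier, so that intervals and floors cover counting error only. Of 14323 symbols, 14276 were matched to GENCODE M21 (GRCm38) or RefSeq names, 13168 of them protein coding; other genes were left out of counts after the test.

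Counts were tested in edgeR 4.0.16 (R 4.3.3) by its quasi-likelihood F-test, after TMM and filterByExpr, with the mouse number as a block. P values were adjusted by Benjamini-Hochberg across the genes tested, and the threshold was 0.05. The fits were tested on simulated data, where the share of unchanged genes among the calls stayed under the threshold for the response in each arm and exceeded it for the interaction. The block follows the mouse numbers in the labels, which are the same in the 4 groups. Deviations from group means correlated across genes (not independent replicates) with a mean r of 0.0353 for libraries of the same mouse and -0.0177 for others, and no replicate block gave 6364 genes against 6305. Libraries of a group differed by 3.22 to 5.23 times the variance of sampling. A group at 0 was given a floor of 3 counts per library, and ratios on 1 to 3 counts exact 95% intervals.

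Members and gene lists were chosen with earlier results of these data known. A gene was named for being in the top 10 by rise or by fall (adjusted p under 0.05, at least 10 CPM, same direction in all mice), in the top 5 by interaction either way at 10 CPM, a marker or anchor of a list, its highest or lowest member, or a member past the interaction threshold. Some genes that this rule takes are not reported here. Alternatives were DESeq2 1.42.0 with and without the block, its size factors, the upper quartile, library totals alone, other filters on low counts, thinning, each mouse or library left out, all 12 libraries in 1 fit, and no mitochondrial genes or Rn45s.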

Additional observations from a re-analysis of the deposited data

Results flagged for a closer look

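The anti-CD3 response differed between anti-LAIR-1 and isotype by the test of the interaction itself in 211 protein-coding genes (edgeR's quasi-likelihood test). The values that follow are log2 fold changes with anti-LAIR-1 minus those with isotype, at an adjusted p under 0.05. Among homing and egress genes they were 1.92 for S1pr1, 1.68 for Cd55, 1.10 for Itgb7, 0.90 for Selplg, 0.89 for S1pr4 and 0.69 for Klf2, Klf2 passing in 8 of 12 other settings (estimates from 0.44 to 1.04) and Cd55 in 8 of 11 (0.97 to 2.08). Among naïve and quiescence genes they were 3.71 for Ramp1, 1.28 for Kbtbd11, 1.07 for Cdkn1b, 1.03 for Dapl1, 1.03 for Pik3ip1, 0.90 for Tsc22d3, 0.83 for Slfn1, 0.71 for Txnip, 0.70 for Tcf7 and 0.64 for Lef1. In the anti-LAIR-1 arm Ramp1 had 76 unstimulated and 30 stimulated counts (log2 fold change -1.97), and its estimate rests on the isotype counts as well. The Ramp1 call passed in 5 of 11 other settings (estimates from 3.23 to 6.13). Receptors gave 1.14 for Il7r, 1.01 for Cxcr4, 0.92 for Klrd1, 0.91 for Pecam1, 0.57 for Cd2 and 0.46 for Cd28. Receptor-proximal signalling genes gave 1.32 for Dgka, 0.84 for Skap1, 0.57 for Cd3g, 0.53 for Csk and 0.50 for Cd3e, and genes of the actin cytoskeleton 0.92 for Lsp1, 0.88 for Cnn2, 0.69 for Tmsb10, 0.66 for Coro1a and 0.48 for Myh9. In the list of the T cell receptor complex and proximal signalling, 1 other gene passed with a lower value.

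Values above 0 outside these groups were 0.67 for Arl5c, 1.92 for Smpdl3a, 1.91 for 2310067B10Rik, 1.90 for Cnp, 1.74 for Rasa3, 0.98 for Ctps2, 0.58 for Psmb8, 0.94 for Ulk2 and 0.53 for Laptm5. Values below 0, where the response was lower under anti-LAIR-1, were -1.15 for Ccl4, -0.74 for Xcl1, -1.53 for Ccl3, -1.90 for Cish, -1.19 for Bcl2l1, -0.58 for Ccnd2, -1.21 for Rbmx2, -0.74 for Nkg7 and -0.82 for Pfas. The Bcl2l1 estimate ran from -1.80 to -0.90 in other settings. The calls for Arl5c, Klf2, Tcf7, Bcl2l1, Ccnd2, Smpdl3a, Nkg7, Itgb7, Pik3ip1, Ramp1, Ctps2, Pfas and Myh9 were lost in 4 or more of 11 or 12 other settings. Outside the protein-coding genes that the comparisons use, 173 of 265 other genes passed with anti-CD3 under anti-LAIR-1 in edgeR (65.3%), 59 higher and 114 lower.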

How the results depend on the processing

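The data were 3 mice at 1 time point, and a change in a share of RNA is not a change per cell. The counts of genes called with anti-CD3 under anti-LAIR-1 and with isotype stayed within 1.5 times their values in every setting tried, under anti-LAIR-1 between 5321 (thinned) and 6530 (no filter on low counts), with 6364 without a block. The interaction depended on depth and on the number of mice: thinned, it gave 126 genes (115 higher, 11 lower), and with a mouse left out 75 to 94 (66 to 88 higher, 3 to 9 lower), while no filter on low counts gave 50 lower. No replicate block gave 186. Fewer mice leave fewer degrees of freedom; for the other changes the cause was not tested. Induced genes with a smaller response numbered 30 with no filter, 8 thinned and 1 to 5 with a mouse left out, and repressed ones 107 thinned and 64 to 88 with a mouse left out.

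The median difference between the arms in induced genes was -0.18 above a log2 fold change of 2, -0.18 to -0.0778 with a mouse left out, and -0.0368 with genes fixed in the other 2 mice and measured in mouse 1. In repressed genes it was 0.38 with at least 10 counts in every library, 0.39 with library totals alone, 0.47 with no filter, 0.35 with the upper quartile, 0.44 to 0.48 with a mouse left out, 0.65 above a log2 fold change of 2, and 0.31, 0.37 and 0.36 read in the left-out mice 1, 2 and 3. Its sign was the same in each of these.

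Of the named genes, only some that did not pass changed sign; the cause was not tested. Tnfrsf4 was at 0.0208 with no filter and -0.51 to 0.52 with a mouse or library left out. For Rpl3, anti-CD3 log2 fold change under anti-LAIR-1 was -0.0218 with at least 10 counts in every library, -0.0894 with library totals, -0.0399 thinned, -0.19 with the upper quartile (where it passed) and -0.0100 to 0.0932 with a mouse or library left out. Without the filter Rps6 was at 0.0531 and Csk at 0.0580, and with a mouse or library left out they ran over -0.12 to 0.0510 and -0.12 to 0.0426. For mtNd1, anti-CD3 log2 fold change under anti-LAIR-1 was -0.0346 with library totals alone and -0.13 with the upper quartile. Over all named genes and settings, 61 calls with anti-CD3 and 112 interaction calls were lost.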

Other observations

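Some long non-coding RNAs changed with anti-CD3 under anti-LAIR-1 past the threshold of edgeR's test; those given here were chosen after their values were seen. Malat1 and Neat1, nuclear RNAs, fell, Malat1 from 529 ± 108 CPM to 163 ± 22.7 CPM (SD, n = 3; log2 fold change -1.70) and Neat1 from 195 ± 19.8 CPM to 32.7 ± 11 CPM (SD, n = 3; log2 fold change -2.63). Neat1 fell less than with isotype (interaction 1.28, adjusted p = 3.9e-04 in edgeR). The small nucleolar RNA hosts Snhg1, Snhg3 and Gas5 rose, Snhg1 from 207 ± 4.70 CPM to 545 ± 58.1 CPM (SD, n = 3; log2 fold change 1.38), Snhg3 from 38.3 ± 5.46 CPM to 149 ± 7.48 CPM (SD, n = 3; log2 fold change 1.96) and Gas5 from 399 ± 18 CPM to 499 ± 11.8 CPM (SD, n = 3; log2 fold change 0.32). The mitochondrial ribosomal RNAs mt-Rnr1 and mt-Rnr2 had log2 fold changes of -1.41 and -1.39. Cct6a, a chaperonin subunit that the annotation lists as a processed transcript and that therefore stood outside the chaperonin count, rose from 189 ± 6.38 CPM to 815 ± 24.8 CPM (SD, n = 3; log2 fold change 2.10).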
